A study of Arabidopsis thaliana with 6 samples.

Results

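The 49 genes described here code in the nucleus for enzymes, regulators and carriers of the Calvin-Benson cycle (23 genes) and of photorespiration (26 genes). They were taken from a list of AGI locus codes, and all 49 were found among the 28387 genes of the deposited table of log2 expression values. The data compared leaves of atpip1;2-1 (the mutant), an Arabidopsis thaliana T-DNA insertion line named for the plasma membrane aquaporin gene PIP1;2, with leaves of the wild type N60000. Each group had 3 Affymetrix arrays, and each array read RNA pooled from 5 plants that were 3 weeks old, so 15 plants stood behind each line. Both lines grew in a greenhouse at 24 °C by day and 20 °C by night and 60% humidity, in 12 h of weak light (70 to 80 µmol per square metre and second), with carbon dioxide at 370 µmol per mol. The mutant group is a single insertion line, so an effect of PIP1;2 and of anything else particular to that line cannot be told apart.

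In the Calvin-Benson cycle, Rubisco joins carbon dioxide to ribulose bisphosphate in the chloroplast, the product is reduced to triose phosphate, and most of that is used to rebuild the acceptor. Rubisco also accepts oxygen, and the phosphoglycolate that results is recycled by photorespiration through chloroplast, peroxisome and mitochondrion, with release of carbon dioxide and ammonium. The less carbon dioxide reaches Rubisco, the larger the share of oxygen it uses. PIP1;2 has been studied as a channel for carbon dioxide as well as water, and the comparison asks whether transcripts of these pathways differ in leaves with less PIP1;2 transcript.

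The insertion line had a much lower signal for PIP1;2 (AT2G45960, PIP1B in the reference gene table). Its log2 values were 5.16, 5.51 and 5.18 in atpip1;2-1 and 8.73, 9.14 and 8.74 in the wild type, a difference of -3.59 (SE 0.18, adjusted p = 0.000148 from limma). The atpip1;2-1 values still lay above the median of all genes on the arrays (3.78 to 3.84). The leaf mesophyll markers LHCB2.1, LHCB3, CA1 and LHCA3 had mean log2 levels of 9.69 to 9.85 per atpip1;2-1 array and 9.55 to 9.74 per wild type array. The root markers PIN2, RHD6, SCR and PHT1;1 averaged 2.91 to 3.31 per atpip1;2-1 array and 2.92 to 3.29 per wild type array. Of 19 markers of mesophyll, epidermis, guard cells, vasculature and root, 0 passed an adjusted p of 0.05 with limma. At an unadjusted p under 0.05, 1 was higher and 1 lower (5.26% each, against 5.92% and 6.32% of all genes). These were the epidermal genes CER6, a wax enzyme gene (0.75, SE 0.18, adjusted p = 0.153), and PDF1 (-0.94, SE 0.25, adjusted p = 0.194), which differed in opposite directions. The epidermal markers averaged 5.95 to 6.26 per atpip1;2-1 array and 6.07 to 6.19 per wild type array, and the guard cell markers 4.43 to 4.61 per atpip1;2-1 array and 4.50 to 4.70 per wild type array, both with overlap. The vasculature markers SUC2, APL and SULTR2;2 averaged 5.91, 6.01 and 5.99 per atpip1;2-1 array and 5.73, 5.81 and 5.77 per wild type array, without overlap, and all 3 had positive differences with a median of 0.25. Of these, SUC2, a phloem sucrose carrier gene, had non-overlapping arrays (0.33, SE 0.17, adjusted p = 0.480). Among the 19 markers, 2 had non-overlapping arrays higher, SUC2 and CER6 (10.5%, against 9.30% of all genes). Only 1, PDF1, had them lower (5.26%, against 9.24%). The part of the markers in the values of the members was not tested. In leaf RNA, fewer cells of a type and less transcript per cell cannot be told apart.

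No gene of either pathway reached the threshold. With limma, 0 of the 49 members had an adjusted p under 0.05, where 97 of all 28387 genes (0.342%) did, and this count over all genes lay between 14 and 48 with 1 array left out. The smallest adjusted p among the members was 0.242, for GAPA2. At an unadjusted p under 0.05 there were 5 members higher in atpip1;2-1 (10.2%, against 5.92% of all genes) and 1 lower (2.04%, against 6.32%). The 5 were RBCS1B, GAPA2, HCEF1, CP12-1 and CP12-3, all of the Calvin-Benson cycle, and the 1 was GS2, of photorespiration. Leaving out wild type replicate 1 made the higher count 3. The lower count became 3 when mutant replicate 2 was dropped, and 0 when mutant replicate 3, wild type replicate 1 or wild type replicate 2 was dropped.

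The sizes were small as well. Log2 fold changes (atpip1;2-1 minus wild type) ran from -0.45 to 0.72, with 44 of the 49 under 0.5 in size and 28 under 0.25, and the median standard error was 0.17. In 43 of the 49 members (87.8%), the 95% confidence interval of the difference lay wholly within 1 log2 unit, that is a 2-fold change, on either side of 0, against 90.0% of all genes. All 26 photorespiration genes were among the 43. The 6 whose intervals reached beyond 1 were RBCS1B, RBCS2B, GAPA2, TKL2, PRK and CP12-1, each on the higher side.

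**Figure D1:**
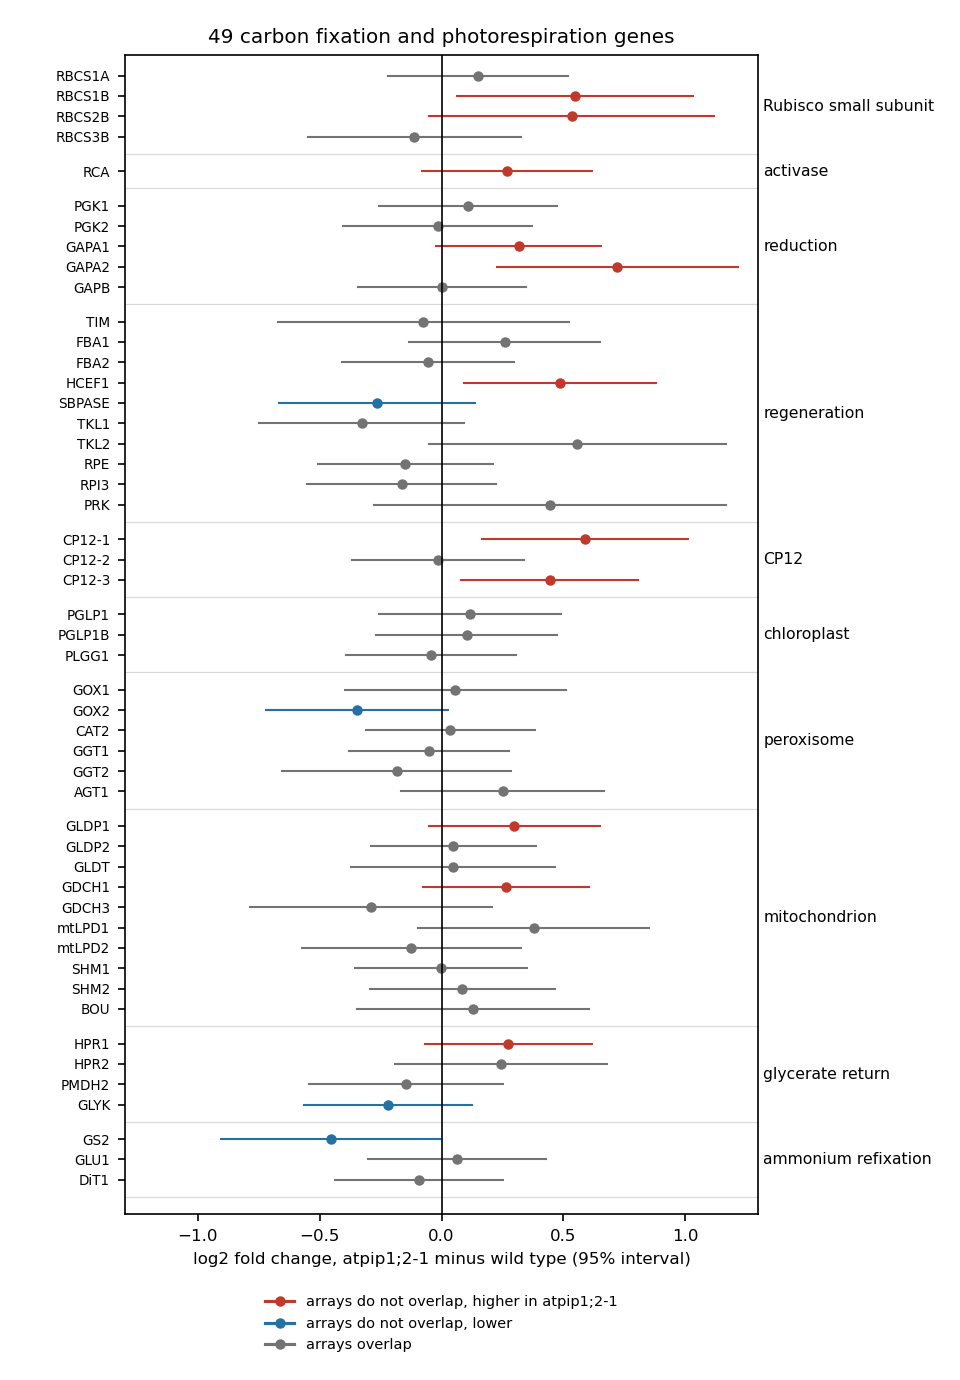
Log2 fold change (atpip1;2-1 minus wild type, x axis) with its 95% confidence interval for each of the 49 genes, ordered by pathway step and coloured by whether the 3 arrays of each line overlap. Points run from -0.45 (GS2) to 0.72 (GAPA2), and the intervals of 6 genes exclude 0.

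Counted by single arrays, 11 members had all 3 atpip1;2-1 arrays above all 3 wild type arrays (22.4%, against 9.30% of all genes) and 4 had them below (8.16%, against 9.24%). In total 29 of the 49 differed in the positive direction (59.2%, against 48.4% of all genes), with a median of 0.06 against -0.01 over all genes. The Calvin-Benson genes supplied 8 of the 11 and 1 of the 4. Their median was 0.15, and that of the photorespiration genes 0.05. Leaving out 1 array gave medians of 0.09 to 0.21 for the Calvin-Benson genes and -0.02 to 0.04 for photorespiration, the lowest being without wild type replicate 1.

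These shares have to be read beside those of other bright genes. Of the 49 members, 41 lay among the 10% of genes with the highest mean signal on these arrays. In that brightest 10%, a comparison chosen after the data were seen, the 2798 genes that are no members had a median of 0.06, with 59.2% positive, 23.9% with non-overlapping arrays higher in atpip1;2-1 and 12.2% lower. At an unadjusted p under 0.05 the members had 10.2% higher and 2.04% lower, and these other bright genes 12.2% higher and 6.54% lower. The 41 bright members alone had 7.32% higher and 2.44% lower at that p. Without overlap they had 22% higher and 9.76% lower. The 49 members thus had nearly the same median and the same share positive as bright genes in general. The 23 Calvin-Benson genes lay above that level in the share of non-overlapping arrays (34.8% higher and 4.35% lower), and the 26 photorespiration genes lay below it on the higher side (11.5% higher and 11.5% lower). The differences between these shares were not tested.

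Another scaling moved these counts. When the deposited values were quantile normalized again, the bright genes outside the list had a median of -0.00, with 17.4% higher and 17.8% lower. The members then had 7 non-overlapping genes higher and 9 lower in place of 11 and 4. These were 14.3% and 18.4%, against 9.42% and 9.65% of all genes. The Calvin-Benson median was 0.03, with 4 higher and 3 lower. The photorespiration median was -0.03, with 3 higher and 6 lower. With array medians made equal the members had 11 higher and 3 lower (22.4% and 6.12%, against 11.1% and 7.75% of all genes). The bright genes outside the list then had 28.2% higher and 10.4% lower. Of the 49 members, 42 kept the sign of their difference under both scalings, and the 7 that did not (PGK2, GAPB, CP12-2, CAT2, GLDP2, SHM1 and GLU1) had differences between -0.02 and 0.06.

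**Figure D2:**
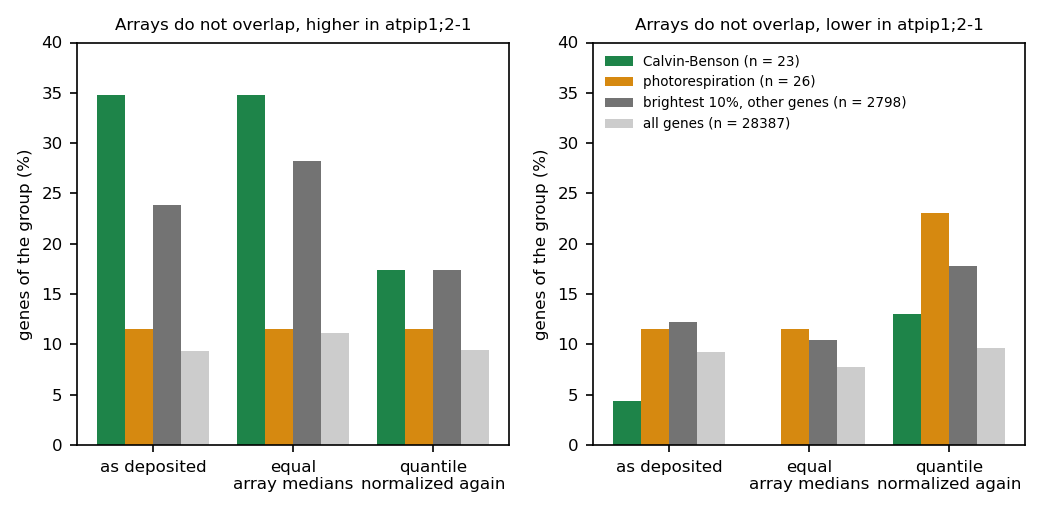
Share of genes (y axis, percent) whose 3 atpip1;2-1 arrays lie all above (left) or all below (right) the 3 wild type arrays, for the values as deposited and under each of the other scalings. The Calvin-Benson share on the higher side was 34.8% as deposited and 17.4% after a further quantile normalization, where the other bright genes also had 17.4%.

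Of the 4 Rubisco small subunit genes, 3 had positive differences and 2 had non-overlapping arrays. RBCS1B (AT5G38430) had log2 values of 10.09, 10.24 and 10.78 in atpip1;2-1 and 9.63, 9.76 and 10.07 in the wild type, a difference of 0.55 (SE 0.22, adjusted p = 0.350). Every atpip1;2-1 array lay above every wild type array, the closest pair being nearly equal. RBCS2B (AT5G38420) had 9.85, 9.79 and 10.79 in atpip1;2-1 and 9.48, 9.58 and 9.77 in the wild type, a difference of 0.53 (SE 0.26, adjusted p = 0.452). In both genes mutant replicate 3 stood highest, and without it the differences were 0.34 for RBCS1B and 0.21 for RBCS2B. After quantile normalization again the groups overlapped in both (0.44 and 0.41). RBCS1A (AT1G67090) had 10.73, 10.46 and 10.64 in atpip1;2-1 and 10.59, 10.50 and 10.29 in the wild type, a difference of 0.15 (SE 0.16). RBCS3B (AT5G38410), a neighbour of RBCS1B and RBCS2B in the genome, averaged 6.11 ± 0.24 in atpip1;2-1 and 6.22 ± 0.25 in the wild type (SD, n = 3 each), a difference of -0.11 (SE 0.19). The groups overlapped in both of these genes. The small subunit genes are close copies of each other, so which of them a probe reads is uncertain. The array profiles of RBCS1B and RBCS2B, each taken around its own mean, differed by at most 0.23 on any array.

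Rubisco activase, which frees Rubisco of bound sugar phosphates, showed a smaller and more even difference. RCA (AT2G39730) had 10.79, 10.94 and 10.76 in atpip1;2-1 and 10.47, 10.54 and 10.68 in the wild type, a difference of 0.27 (SE 0.16, adjusted p = 0.529). All atpip1;2-1 arrays lay above the wild type. The second deposited table, which holds 1 value per probe set, gave RCA a difference of 0.11 (SE 0.12) with groups that overlapped, and the groups also overlapped after quantile normalization again (0.16).

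The reduction steps held the gene with the largest difference of all members. GAPA2 (AT1G12900), for an A subunit of the chloroplast glyceraldehyde phosphate dehydrogenase that uses NADPH, had 6.96, 7.49 and 7.76 in atpip1;2-1 and 6.58, 6.59 and 6.89 in the wild type. The lowest atpip1;2-1 array lay just above the highest wild type array, and the difference was 0.72 (SE 0.22, 1.65-fold, adjusted p = 0.242), or 0.54 without mutant replicate 3. The groups overlapped after quantile normalization again (0.70). GAPA1 (AT3G26650), the other A subunit gene, had 9.51, 9.54 and 9.36 in atpip1;2-1 and 9.11, 9.18 and 9.18 in the wild type, a difference of 0.32 (SE 0.15, adjusted p = 0.442) with no overlap. GAPB (AT1G42970), for the B subunit that pairs with them, had 10.76, 10.95 and 10.76 in atpip1;2-1 and 10.76, 10.80 and 10.91 in the wild type. Its difference was 0.00 (95% interval -0.34 to 0.35). The phosphoglycerate kinase genes PGK1 (0.11, SE 0.16) and PGK2 (-0.02, SE 0.17) both overlapped between groups.

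Genes that rebuild the Rubisco acceptor went both ways, with 4 of 10 positive and a median of -0.07. HCEF1 (AT3G54050), the chloroplast fructose bisphosphatase gene, had 7.54, 7.38 and 7.84 in atpip1;2-1 and 6.97, 7.20 and 7.11 in the wild type, a difference of 0.49 (SE 0.18, adjusted p = 0.313) without overlap. SBPASE (AT3G55800), for the sedoheptulose bisphosphatase that works on the parallel reaction, had 10.13, 10.14 and 9.72 in atpip1;2-1 and 10.18, 10.18 and 10.42 in the wild type. Its arrays did not overlap either, but in the other direction (-0.26, SE 0.18, adjusted p = 0.599), and the difference was -0.13 without mutant replicate 3. The probe-set table gave SBPASE -0.26 (SE 0.16), again without overlap.

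The transketolase genes also had differences of opposite sign. TKL2 (AT2G45290) had 5.59, 4.84 and 5.17 in atpip1;2-1 and 4.08, 4.95 and 4.90 in the wild type, a difference of 0.56 (SE 0.27, adjusted p = 0.452) that was 0.28 without wild type replicate 1. TKL1 (AT3G60750) had 10.34, 10.77 and 10.38 in atpip1;2-1 and 10.95, 10.95 and 10.58 in the wild type, a difference of -0.33 (SE 0.19, adjusted p = 0.526). Both pairs of groups overlapped. PRK (AT1G32060), the phosphoribulokinase gene that makes the acceptor, varied more between arrays of a line than any other member, with 8.21, 7.65 and 7.04 in atpip1;2-1 and 6.87, 7.76 and 6.93 in the wild type. Its difference of 0.44 (SE 0.32) was 0.16 without mutant replicate 1 and 0.74 without mutant replicate 3. The aldolase genes FBA1 (0.26, SE 0.17) and FBA2 (-0.06, SE 0.16), the triose phosphate isomerase gene TIM (-0.08, SE 0.27), RPE (-0.15, SE 0.16) and RPI3 (-0.16, SE 0.17) all overlapped between groups.

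CP12 proteins tie glyceraldehyde phosphate dehydrogenase and phosphoribulokinase into an inactive complex in the dark, and 2 of the 3 genes for them had non-overlapping arrays. CP12-1 (AT2G47400) had 8.50, 8.29 and 8.88 in atpip1;2-1 and 7.92, 8.10 and 7.89 in the wild type, a difference of 0.59 (SE 0.19, adjusted p = 0.261). CP12-3 (AT1G76560) had 3.60, 3.55 and 3.80 in atpip1;2-1 and 3.36, 3.11 and 3.14 in the wild type, a difference of 0.44 (SE 0.16, adjusted p = 0.319). In both genes every atpip1;2-1 array was above every wild type array, also after quantile normalization again (0.53 and 0.49). CP12-2 (AT3G62410) had 8.84, 8.67 and 8.53 in atpip1;2-1 and 8.65, 8.72 and 8.71 in the wild type, a difference of -0.02 (95% interval -0.37 to 0.34). CP12-3 was the 1 member among the dimmer 50% of all genes, and none was in the dimmest 25%.

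**Figure D3:**
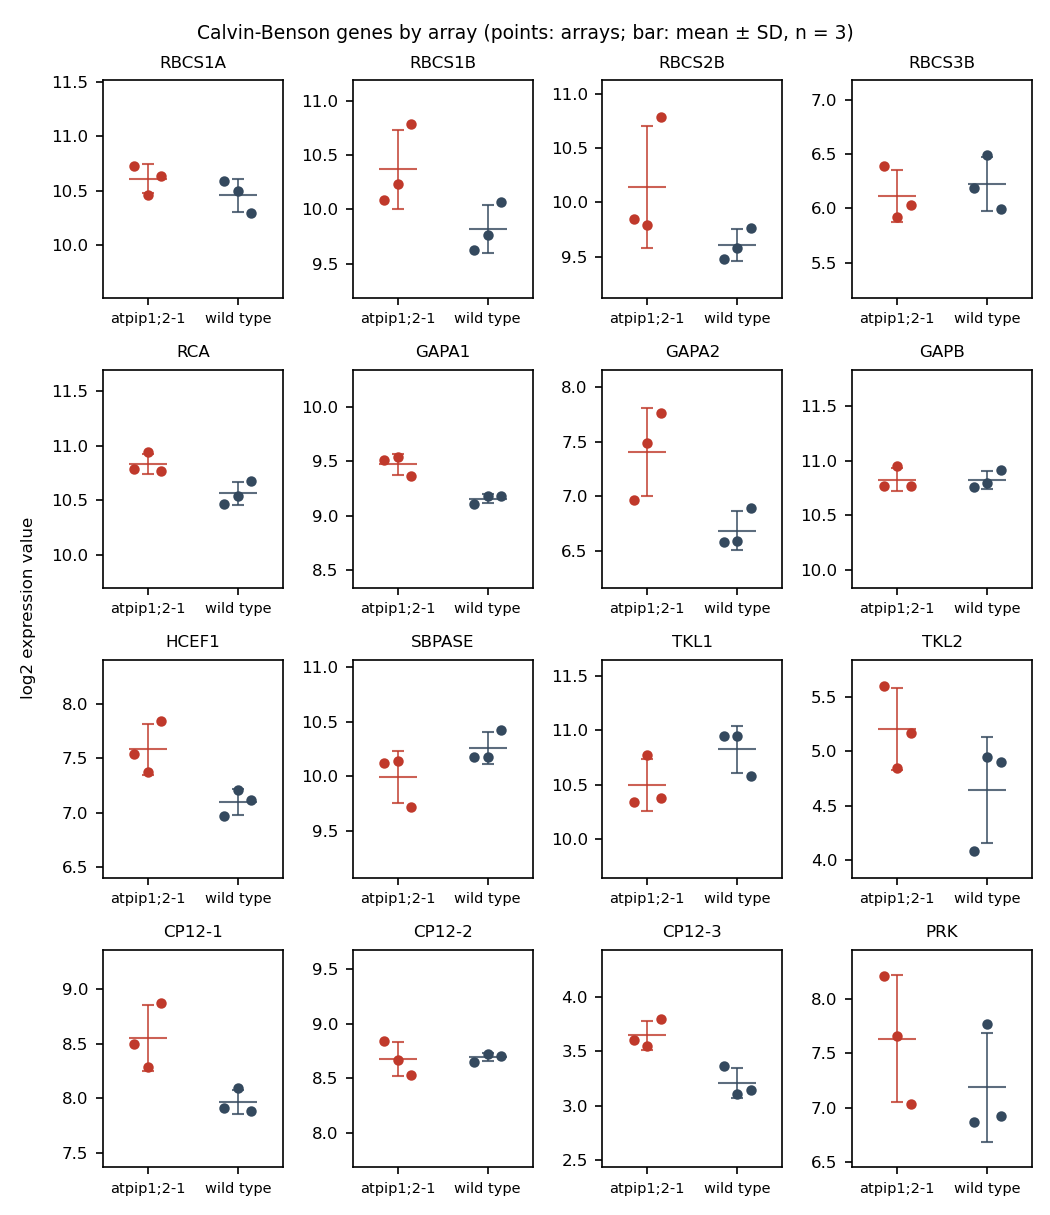
Log2 expression value (y axis, 2 units or more per panel) on each array for 16 Calvin-Benson genes, atpip1;2-1 left and wild type right, with the mean and SD of 3 arrays. RBCS1B, RBCS2B, RCA, GAPA1, GAPA2, HCEF1, CP12-1 and CP12-3 lie wholly above the wild type. SBPASE lies wholly below it, and the other genes, PRK, GAPB and CP12-2 among them, overlap it.

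Photorespiration begins in the chloroplast, where differences were slight. The phosphoglycolate phosphatase gene PGLP1 (AT5G36700) had 9.35, 9.04 and 9.41 in atpip1;2-1 and 9.21, 9.17 and 9.07 in the wild type, a difference of 0.12 (SE 0.17, adjusted p = 0.829), with groups that overlapped. Its copy AT5G36790 had a difference of 0.10 (SE 0.17). The array profiles of these 2 loci, each around its own mean, differed by at most 0.03 on any array, so they cannot be treated as separate measurements. PLGG1, which carries glycolate out of the chloroplast and glycerate back, had -0.04 (95% interval -0.39 to 0.31).

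In the peroxisome, glycolate is oxidized and the glyoxylate is aminated to glycine. GOX2 (AT3G14415), a glycolate oxidase gene, had 9.54, 9.81 and 9.41 in atpip1;2-1 and 9.94, 9.86 and 9.99 in the wild type, a difference of -0.35 (SE 0.17, adjusted p = 0.442). Its atpip1;2-1 arrays lay below all wild type arrays, also after quantile normalization again (-0.46). GOX1 (AT3G14420), its neighbour, had 7.78, 7.37 and 7.36 in atpip1;2-1 and 7.52, 7.13 and 7.70 in the wild type, a difference of 0.06 (SE 0.20). The groups overlapped in GOX1 and in the other peroxisomal members. Those were the catalase gene CAT2, which removes the hydrogen peroxide made by glycolate oxidase (0.04, SE 0.15), the glutamate:glyoxylate aminotransferase genes GGT1 (-0.05, SE 0.15) and GGT2 (-0.18, SE 0.21), and the serine:glyoxylate aminotransferase gene AGT1 (0.25, SE 0.19).

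In the mitochondrion, glycine decarboxylase and serine hydroxymethyltransferase turn glycine into serine. GLDP1 (AT4G33010), for the P-protein of glycine decarboxylase, had 12.07, 12.06 and 12.32 in atpip1;2-1 and 11.90, 11.83 and 11.83 in the wild type, a difference of 0.30 (SE 0.16, adjusted p = 0.491) without overlap. GDCH1 (AT2G35370), for an H-protein of that complex, had 7.64, 7.66 and 7.62 in atpip1;2-1 and 7.25, 7.48 and 7.39 in the wild type, a difference of 0.26 (SE 0.15, adjusted p = 0.529), also without overlap. With 1 array left out the differences were 0.21 to 0.34 for GLDP1 and 0.20 to 0.32 for GDCH1. Their sign could not turn there, because the groups do not overlap. Both sets of arrays stayed apart after quantile normalization again (0.17 and 0.22).

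The other mitochondrial genes all overlapped between the lines. GDCH3 (AT1G32470), for another H-protein, had 8.58, 8.54 and 7.79 in atpip1;2-1 and 8.65, 8.55 and 8.58 in the wild type. The low array was mutant replicate 3. The difference of -0.29 (SE 0.22) was -0.03 without that array, and the groups were apart after quantile normalization again (-0.35). The probe-set table gave -0.47 (SE 0.20, adjusted p = 0.413) without overlap, and GDCH3 was the 1 member of 10 with an unadjusted p under 0.05 there. mtLPD1 (AT1G48030), for a lipoamide dehydrogenase that serves as the L-protein, had 7.83, 8.21 and 8.57 in atpip1;2-1 and 7.67, 7.78 and 8.02 in the wild type, a difference of 0.38 (SE 0.21, adjusted p = 0.515), with overlap, that was 0.19 without mutant replicate 3. GLDP2 (0.05, SE 0.15), the T-protein gene GLDT (0.05, SE 0.19), mtLPD2 (-0.12, SE 0.20), SHM1 (-0.00, SE 0.16), SHM2 (0.09, SE 0.17) and the mitochondrial carrier gene BOU (0.13, SE 0.21) make up the rest.

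On the way back, serine is turned into hydroxypyruvate and glycerate and returns to the cycle as phosphoglycerate. HPR1 (AT1G68010), the peroxisomal hydroxypyruvate reductase gene, had 10.31, 10.27 and 10.42 in atpip1;2-1 and 10.18, 10.03 and 9.98 in the wild type, a difference of 0.27 (SE 0.15, adjusted p = 0.515) without overlap. The probe-set table gave HPR1 a difference of -0.0033 (SE 0.12) with overlap. GLYK (AT1G80380), the chloroplast glycerate kinase gene that closes the path, had 7.61, 7.67 and 7.72 in atpip1;2-1 and 7.85, 7.79 and 8.03 in the wild type, a difference of -0.22 (SE 0.15, adjusted p = 0.616). Its atpip1;2-1 arrays lay below the wild type in both tables (-0.14, SE 0.13, per probe set). The cytosolic reductase gene HPR2 (0.24, SE 0.19) and the peroxisomal malate dehydrogenase gene PMDH2 (-0.15, SE 0.18) overlapped.

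The ammonium released in the mitochondrion is fixed again in the chloroplast. GS2 (AT5G35630), the chloroplast glutamine synthetase gene, had 9.55, 9.44 and 8.86 in atpip1;2-1 and 9.74, 9.74 and 9.72 in the wild type, a difference of -0.45 (SE 0.20, adjusted p = 0.405). All atpip1;2-1 arrays lay below the narrow band of the wild type, with replicate 3 far the lowest, and the difference was -0.24 without it. The ferredoxin-dependent glutamate synthase gene GLU1 had 0.06 (SE 0.16) and the 2-oxoglutarate and malate carrier gene DiT1 had -0.09 (SE 0.15), both with overlap.

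**Figure D4:**
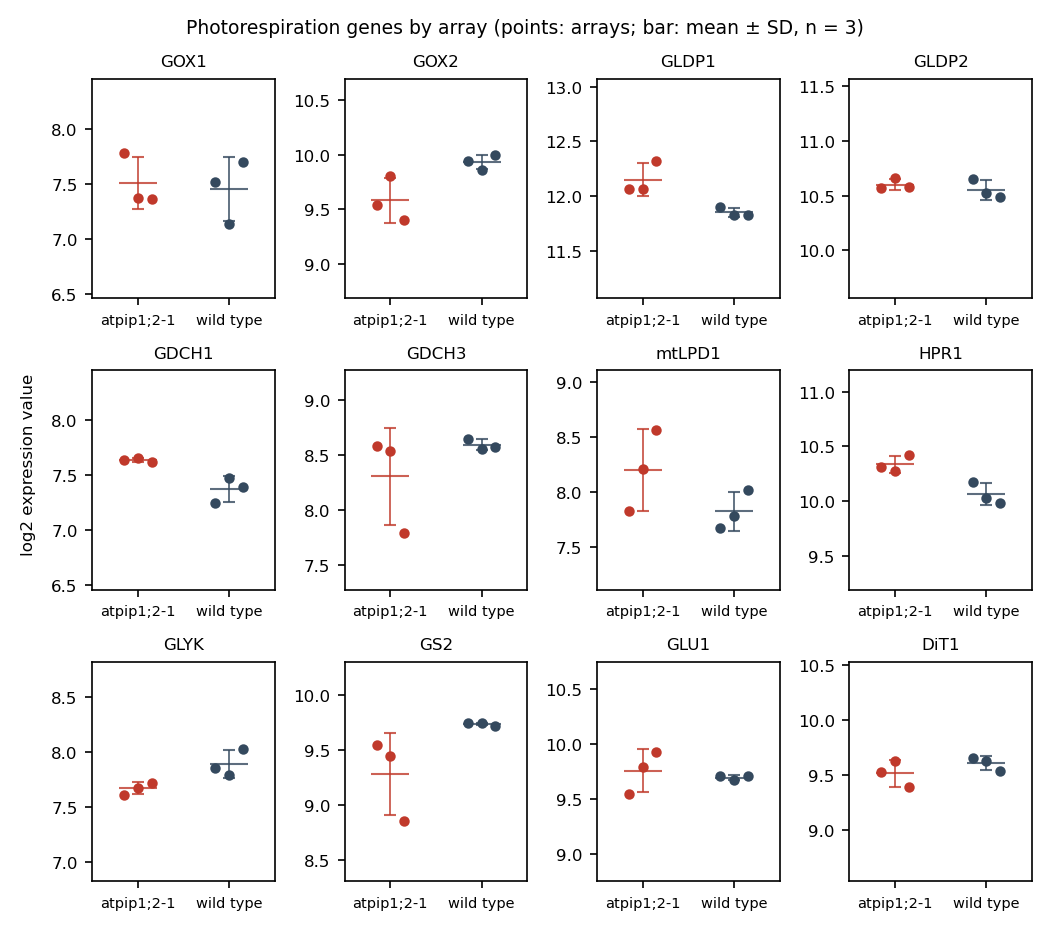
Log2 expression value (y axis, 2 units or more per panel) on each array for 12 photorespiration genes, atpip1;2-1 left and wild type right, with the mean and SD of 3 arrays. GLDP1, GDCH1 and HPR1 lie wholly above the wild type, GOX2, GLYK and GS2 wholly below it, and the low points of GDCH3 and GS2 are mutant replicate 3.

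Several enzymes are coded by more than 1 member. In 17 pairs of members for the same kind of protein, put together after the values were seen, 10 had differences of opposite sign and 7 of the same sign. RBCS3B stands in 2 of the 10, and its sign turned with 1 array left out. So did the signs of GOX1, FBA2 and mtLPD2, in other pairs of the 10. A further 3 hold PGK2, CP12-2 or SHM1, whose signs turned with the scaling. Only in the pairs TKL1 with TKL2 and GDCH1 with GDCH3 did both copies keep their sign in every setting of the table per gene. Taken within each array, the difference between the copies separated the lines without overlap in 4 of the 17: CP12-1 against CP12-2, GDCH1 against GDCH3, FBA1 against FBA2 and GLDP1 against GLDP2. Of all single genes, 9.30% and 9.24% were higher and lower without overlap, and the share over other pairs of copies was not computed. In each of them the copy named first had the more positive difference, by 0.60, 0.55, 0.32 and 0.25 on the log2 scale. These within-array differences were not tested.

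The arrays of each line did not contribute evenly to the spread. Among the 49 members, mutant replicate 3 was the array farthest from its line's mean in 24, against 39.5% of all genes, and wild type replicate 3 was so in 22 (44.9%, against 42.1% of all genes). In the Calvin-Benson genes mutant replicate 3 was farthest in 13 of 23. Without that array the members had 15 genes higher without overlap and 5 lower. The lower count was 7 without mutant replicate 2 and 10 without wild type replicate 3, where groups of fewer arrays separate more easily.

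Of 29 other genes of the pathways listed beside the members, 0 passed the threshold with limma. At an unadjusted p under 0.05, 1 was higher and 2 lower (3.45% and 6.9%, against 5.92% and 6.32% of all genes). Non-overlapping arrays were found higher in 4 and lower in 3 (13.8% and 10.3%, against 9.30% and 9.24% of all genes). RBCL, the chloroplast gene for the Rubisco large subunit that the small subunits join, had 13.62, 13.60 and 13.55 in atpip1;2-1 and 13.52, 13.56 and 13.55 in the wild type. Its difference was 0.05 (95% interval -0.28 to 0.38), with groups that overlapped. Of the 10 genes for folding and assembly of Rubisco, 2 had non-overlapping arrays higher and 3 lower (20.0% and 30.0%, against the same 9.30% and 9.24%).

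The chaperonin genes, whose products fold the large subunit among other chloroplast proteins, were lower in the mean. CPN60B2 (AT3G13470), for a beta subunit, had 6.75, 6.56 and 7.02 in atpip1;2-1 and 7.71, 7.66 and 7.47 in the wild type, a difference of -0.84 (SE 0.18, adjusted p = 0.107). CPN20 (AT5G20720), for the co-chaperonin, had 8.32, 8.42 and 8.48 in atpip1;2-1 and 8.87, 8.84 and 8.87 in the wild type, a difference of -0.45 (SE 0.15, adjusted p = 0.276). CPN60A1 (AT2G28000) differed by -0.26 (SE 0.15, adjusted p = 0.543). In these 3 genes every atpip1;2-1 array lay below every wild type array, so leaving out 1 array could not turn the sign. The differences with 1 array left out were -0.96 to -0.73, -0.49 to -0.41 and -0.32 to -0.22. CPN60B1 had -0.15 (SE 0.16) with overlap.

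Assembly factors that act after folding were higher in part. RAF2 (AT5G51110) had 8.13, 8.33 and 8.28 in atpip1;2-1 and 7.88, 7.79 and 7.38 in the wild type, a difference of 0.56 (SE 0.18, adjusted p = 0.262). RBCX1 (AT4G04330) had 8.58, 8.62 and 8.68 in atpip1;2-1 and 8.28, 8.33 and 8.30 in the wild type, a difference of 0.32 (SE 0.15, adjusted p = 0.415). Neither gene's arrays overlapped between the lines. BSD2 (0.04) and RBCX2 (0.10) overlapped.

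**Figure D5:**
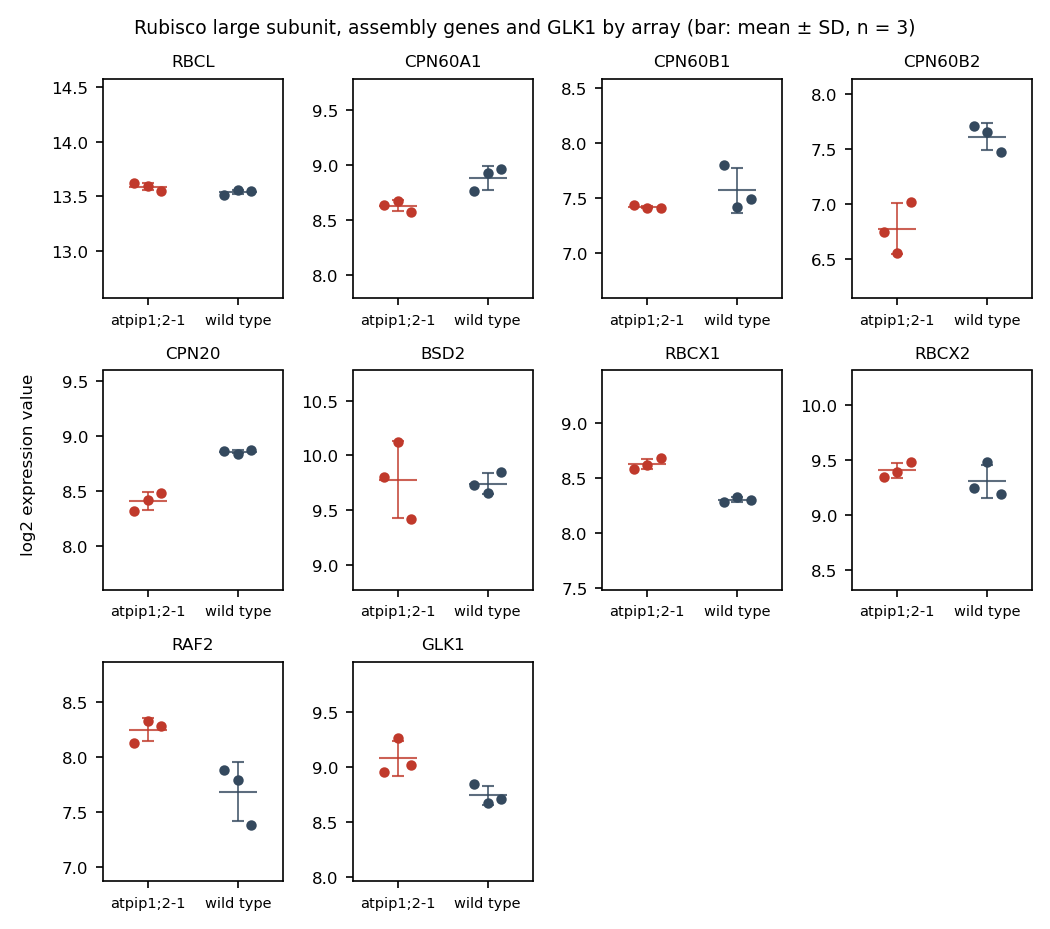
Log2 expression value (y axis, 2 units or more per panel) on each array for the Rubisco large subunit gene, 8 assembly genes and GLK1, atpip1;2-1 left and wild type right, with the mean and SD of 3 arrays. CPN60A1, CPN60B2 and CPN20 lie wholly below the wild type, RBCX1, RAF2 and GLK1 wholly above it, and RBCL overlaps it.

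The remaining non-overlapping genes of the 29 were the plastid aldolase gene FBA3 (0.26, SE 0.15) and the catalase gene CAT3 (0.27, SE 0.15), both higher. The thioredoxin f genes, whose products switch on cycle enzymes in the light, had -0.05 for TRXF1 and -0.31 for TRXF2 (SE 0.18 and 0.20) with overlap. GLK1, a transcription factor gene of chloroplast development, had 8.96, 9.26 and 9.02 in atpip1;2-1 and 8.84, 8.68 and 8.71 in the wild type, a difference of 0.34 (SE 0.16, adjusted p = 0.439) without overlap. GLK2 had 0.23 (SE 0.17) and HY5 had 0.02 (SE 0.17).

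Transcripts of many leaf genes vary with the time of day, and the labels give no hour of harvest. None of 9 clock genes passed the threshold with limma. At an unadjusted p under 0.05, 0 were higher and 1 was lower (11.1%, against 6.32% of all genes). That gene, TOC1, had 6.33, 6.29 and 6.38 in atpip1;2-1 and 6.85, 6.83 and 6.79 in the wild type, a difference of -0.49 (SE 0.15, adjusted p = 0.236). Of the 9, 2 had non-overlapping arrays higher and 2 lower (22.2% each, against 9.30% and 9.24% of all genes). LHY had 0.31 (SE 0.17) and GI had 0.30 (SE 0.17), both without overlap. PRR5 had -0.17 (SE 0.16) below the wild type, and the other 5 clock genes overlapped. The part of these differences in the values of the members was not tested.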

How the data were processed

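The analysis used 6 Affymetrix arrays of leaf RNA, 3 for each line, with groups and replicate numbers from the labels. The deposited log2 values, 1 per AGI code and array, were made by the authors with RMA and Partek, per the submitters' processing notes, which give no versions. RMA corrects background, normalizes between arrays and joins the probes of a gene. Neither the genome build nor the grouping of probes by gene is stated in these notes or labels, and no coordinates are printed. A second deposited table, 1 value per probe set, was taken as log2 from its range and from its correlation of 0.960 to 0.966 with the table per gene. It named 10 of the 49 members through the platform annotation. No detection calls came with the values, and precision is limited by how few arrays there are. The p-values measure the spread between arrays after moderation, which draws each gene's variance toward that of all genes. The standard errors and intervals are moderated too, so for a gene with tight arrays they are wider than its own arrays give. GGT1, for example, had SDs of 0.02 in atpip1;2-1 and 0.04 in the wild type beside an SE of 0.15.

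A linear model with the line as its only term was fitted to all 28387 genes by limma (version 3.58.1, R 4.3.3), with moderated two-sided tests. The p-values were adjusted over the whole table by Benjamini and Hochberg's method, and the threshold was an adjusted p of 0.05. The fit was tested on simulated data. Intervals are 95% confidence intervals of single genes from that fit. The members and the gene lists were chosen with earlier results of these data known. Values of every array are given for members whose groups do not overlap or whose unadjusted p is under 0.05, and for the largest difference of each step. RBCS and CP12 genes, and copies that went opposite ways, could be named too, some with array values. PRK and GAPB were added after their values were seen. Other listed genes with groups that do not overlap or an unadjusted p under 0.05 are named, with others of each list beside them. Values of 2 listed assembly genes are not reported here. Correlations between same-numbered arrays did not meet the level set for pairing. Gene names are those of the lists, and all 49 locus codes were found in RefSeq's gene table (TAIR10.1). Promoter motifs were not analysed here. Figures were drawn with matplotlib 3.10.9 in Python 3.11.15.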

Additional observations from a re-analysis of the deposited data

How the results depend on the processing

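With 3 arrays a line and a median standard error of 0.17, small differences could not be resolved, and a member that misses the threshold is not shown to be alike in both lines. The count of 0 members past the threshold held in all 15 alternatives, with 0.0878 the smallest adjusted p of any member. The count over all genes (97) was 31 in the probe-set table, 196 without the dimmest 50% of genes, 375 with a variance trend and robust fitting, 0 with limma's linear fit without moderation (3076 at an unadjusted p under 0.05, and 3476 with moderation), 45 with the replicate block and 14 to 48 with 1 array left out. The labels do not say whether same-numbered arrays share a batch, and the main fit did not pair them. Same-numbered arrays had correlations of 0.0085, 0.0498 and 0.0745 in their deviations from the line means. Such low values cannot exclude a shared batch. The block left the members' count at 0, as every alternative did, so that count cannot decide the question. The probe-set table names 10 members, 4 of the Calvin-Benson cycle and 6 of photorespiration, so the set of members changed with the table. In it 9 of the 10 kept their sign, 4 were positive, 0 were higher at an unadjusted p under 0.05 or without overlap, 1 was lower at that p and 3 were lower without overlap. The medians over these few members were -0.0091 for the Calvin-Benson genes and -0.0033 for photorespiration, and HPR1 had -0.0033. Counts higher at an unadjusted p under 0.05 (5) were 10 with the trend, 9 without moderation and 3 to 7 with 1 array left out. Counts lower (1) were 2 without the dimmest 50%, 3 with the trend, 2 without moderation, 0 with array weights, 3 with quantile normalization again, 0 with equal medians and 0 to 3 with 1 array left out. Non-overlapping counts were 7 higher and 9 lower with quantile normalization again (14.3% and 18.4%, against 9.42% and 9.65% of all genes). They were 12 to 16 higher and 4 to 10 lower with 1 array left out, where groups of fewer arrays separate more easily. The Calvin-Benson median was 0.0287 with quantile normalization again and 0.0905 to 0.212 with 1 array left out. The photorespiration median was -0.0282 with quantile normalization again, 0.0797 with equal medians and -0.0163 to 0.0422 with 1 array left out. The cause of these shifts was not tested. The alternatives for counts by unadjusted p and by overlap were added after seeing the data. Positive members numbered 26 to 32 with 1 array left out. Of the 18 members named by rule, HPR1 was the 1 whose sign turned under an alternative, the probe-set table. Of the 18, that table named only RCA, SBPASE, HPR1 and GLYK. Leaving out dim genes, the trend, no moderation and the block do not change a difference. Leaving out 1 array cannot turn the sign where groups do not overlap. The kept signs are therefore in large part given by the settings.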
